A study of Mus musculus with 16 samples.

Results

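The genes described here are the microglial complement genes *C1qa*, *C1qb* and *C1qc*, the receptor gene *Trem2* with its adaptor *Tyrobp*, the lipid carrier *Apoe*, and the microglial surface genes *Cx3cr1*, *P2ry12* and *Tmem119*. They were taken by symbol from the gene rows of the count matrices, where each of the 9 symbols matched 1 gene of 32285 in all. Single nuclei of the microdissected dentate gyrus (DG) were sequenced for RNA and accessible chromatin together, with 1 library per mouse. WT mice (VV) were compared with V321L mice (LL), which are homozygous for a *Nrg1* allele with a valine-to-leucine substitution. Each genotype had 4 mice, 2 females and 2 males (F1, F2, M1 and M2). The ages of these mice are not given in the labels. The substitution cannot be read from counts per gene, so these data do not check the genotype labels.

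Microglia are the resident macrophages of the brain. C1q, the recognition molecule that starts the classical complement cascade, is assembled from the protein chains of *C1qa*, *C1qb* and *C1qc*, and in the brain it is made chiefly by microglia and tags synapses and debris for uptake. TREM2 is a receptor for lipids and lipoproteins, APOE among them, and signals through the ITAM adaptor TYROBP (DAP12). *Cx3cr1*, *P2ry12* and *Tmem119* encode the fractalkine receptor, an ADP receptor that steers microglial processes and a membrane protein used as a microglial marker. *Apoe* is made mostly by astrocytes in the healthy brain.

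*C1qa*, *C1qb* and *C1qc* lie next to each other on chromosome 4, from 136880126 to 136898844 (GRCm38, the build also called mm10), a stretch of 18.7 kb. The gene spans in the RefSeq annotation of that build, introns included, are short for 7 of the 9 genes. *C1qa* spans 2.93 kb, *C1qc* 3.14 kb, *Tyrobp* 3.8 kb, *Apoe* 5.07 kb, *Trem2* 5.88 kb, *C1qb* 6.08 kb and *Tmem119* 6.67 kb, whereas *Cx3cr1* spans 19.61 kb and *P2ry12* 46.72 kb. *P2ry12* lies inside the region of *Med12l*, and *Cx3cr1* overlaps *Gm33858*. The sources used here do not state how strand was treated in the counting, so reads of these overlapping genes cannot be told apart.

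The RefSeq promoter windows, 250 bases before to 50 after a start site, held an entry for 6 of the 9 genes. For 4 genes a window is shown that held the letters GAGGAA. These are a core of sites bound by ETS factors such as PU.1, the factor that specifies macrophages. *Apoe* had further windows that are not shown. That at chr7:19698349-19698648 also held GAGGAA, and that at chr7:19698572-19698871 did not. Capitals mark GAGGAA or its complement TTCCTC, and each sequence is written in the direction of its gene.
*C1qb* (chr4:136886151-136886450, minus strand): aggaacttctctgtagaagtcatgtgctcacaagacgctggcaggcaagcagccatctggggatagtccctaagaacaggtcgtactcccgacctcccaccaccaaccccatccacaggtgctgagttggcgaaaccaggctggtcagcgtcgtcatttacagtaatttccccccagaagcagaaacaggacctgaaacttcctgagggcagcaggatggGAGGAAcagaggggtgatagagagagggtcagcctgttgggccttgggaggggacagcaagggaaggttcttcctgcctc
*C1qc* (chr4:136892865-136893164, minus strand): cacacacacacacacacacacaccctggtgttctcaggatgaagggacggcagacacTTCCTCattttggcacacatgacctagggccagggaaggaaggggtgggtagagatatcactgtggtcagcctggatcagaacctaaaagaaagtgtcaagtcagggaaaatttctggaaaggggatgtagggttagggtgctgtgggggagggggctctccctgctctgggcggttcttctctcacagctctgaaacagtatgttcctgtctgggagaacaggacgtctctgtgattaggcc
*Trem2* (chr17:48346151-48346450, plus strand): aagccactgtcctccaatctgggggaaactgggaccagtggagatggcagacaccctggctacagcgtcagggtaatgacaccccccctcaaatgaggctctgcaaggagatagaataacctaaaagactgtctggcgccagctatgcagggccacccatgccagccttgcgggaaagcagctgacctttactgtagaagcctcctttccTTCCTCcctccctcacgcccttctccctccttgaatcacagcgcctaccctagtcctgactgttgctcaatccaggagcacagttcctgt
*Apoe* (chr7:19699139-19699438, minus strand): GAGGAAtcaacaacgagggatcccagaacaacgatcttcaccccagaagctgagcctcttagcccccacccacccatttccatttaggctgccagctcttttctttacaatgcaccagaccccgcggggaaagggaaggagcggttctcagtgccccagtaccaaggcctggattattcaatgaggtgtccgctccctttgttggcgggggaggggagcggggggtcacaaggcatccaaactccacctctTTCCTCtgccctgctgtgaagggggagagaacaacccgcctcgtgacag
On either strand GAGGAA occurred in 28.28% of all 32851 promoter windows, so its presence is common. The longer form GAGGAAGT, found in 3.2% of all windows, occurred among these only in that of *C1qc*, where it contains the shorter match. The windows of *Cx3cr1* and *P2ry12* held neither string.

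The RNA depth of the WT libraries ranged from 4326426 to 14624265 UMIs (unique molecular identifiers, each standing for 1 captured RNA molecule). That of the V321L libraries ranged from 15505354 to 23582057, and 16360 nuclei were kept in all. Microglia and astrocytes were gated on 16 marker genes each, with none of the 9 genes among the markers. A nucleus needed at least 3 markers and a summed excess over background above 2 in standard units. This gave 111 microglia in WT, between 10 and 38 per mouse, and 259 in V321L, between 54 and 89 per mouse, with 373 and 511 astrocytes. Of the 370 gated microglia, 364 also fell in the cluster with the most microglial markers when nuclei were clustered without the 9 genes. That cluster held 417 nuclei, and the gate left out more of its WT than of its V321L nuclei. It held 37, 57, 26 and 40 nuclei of WT F1, F2, M1 and M2, where 32, 38, 10 and 31 were gated. In V321L F1, F2, M1 and M2 it held 58, 89, 54 and 56, where 56, 89, 54 and 60 were gated. More of the WT nuclei sat near the limit of the gate. Among all kept nuclei, inside the gate or not, 31 from WT and 9 from V321L mice had a microglial score between 1.5 and 2.5. Pooled over mice, the median depth of gated microglia was 963 UMIs per nucleus in WT and 976 in V321L. The library of WT M1 stood apart with 10 microglia, of a median of 2429.5 UMIs, and 27 astrocytes, and values without it are given for the main genes. All 16 microglial markers were seen in both genotypes, with a summed level from 4034 to 10371 UMIs per 1000000 (CPM) in WT microglia and from 11402 to 23856 CPM in V321L microglia. The 12 markers of granule cells (GCs) summed to 2391 to 7136 CPM in WT microglia and to 290.3 to 2126 CPM in those of V321L mice. Markers of border macrophages, a related macrophage type, summed to 28.7 to 268.7 CPM in WT, where *Mrc1*, *Cd163*, *Lyve1*, *Cbr2* and *Pf4* were at 0, and to 135.5 to 657.9 CPM in V321L microglia, where 7 of 7 were seen. The median mitochondrial share per mouse ran from 0.00762% to 0.178% in WT microglia and from 0.848% to 1.53% in V321L microglia. Over all nuclei of a library it ran from 0.0695% to 0.128% in WT and from 0.389% to 1.17% in V321L. Neither this share nor the RNA depth of the libraries overlapped between the genotypes. Genotype and library quality thus cannot be told apart here, and a rise or genotype difference below names a difference between the 2 sets of libraries. The part that these differences have in the results was not tested. Free RNA, the RNA outside nuclei that every droplet takes up, was summed over barcodes with at most 100 UMIs in each library. In sums over a class, fewer nuclei that express a gene and less RNA per nucleus cannot be told apart.

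The complement genes were close to absent from the summed counts of gated WT microglia and abundant in those of V321L microglia. The WT sums held GC markers at 2391 to 7136 CPM, beside 4034 to 10371 CPM of microglial markers. They thus do not give the level of microglia alone. *C1qa* was at 50.6, 0, 103.4 and 53.7 CPM in WT F1, F2, M1 and M2, and at 3252, 2070.03, 3909 and 1713 CPM in V321L F1, F2, M1 and M2. The lowest V321L mouse lay above every WT mouse by more than an order of magnitude. *C1qb* was at 67.4, 0, 103.4 and 26.9 CPM in the WT mice and at 2845, 1781, 3459 and 1491 CPM in the V321L mice, in the same order. *C1qc* was at 33.7, 14.3, 103.4 and 107.5 CPM in WT and at 2419, 1833, 2799 and 1354 CPM in V321L. None of the 3 genes overlapped between genotypes, and M1 was the highest V321L mouse for each of them, M2 the lowest. The share of all genes whose levels did not overlap was not computed. Non-overlap of levels, here and for the genes below, thus has no background beside it. The WT values rest on 8, 8 and 10 UMIs and the V321L values on 809, 706 and 636 UMIs. In edgeR's quasi-likelihood test on counts summed per mouse, the log2 fold change was 5.79 ± 0.69 (SE, adjusted p = 0.000125) for *C1qa*, 5.61 ± 0.70 (adjusted p = 0.000136) for *C1qb* and 5.10 ± 0.59 (adjusted p = 0.000105) for *C1qc*, with higher values in 4 of 4 V321L mice. Within V321L microglia the 3 chains made up 37.6%, 32.8% and 29.6% of 2151 C1q UMIs, close to equal parts.

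*Trem2* and *Tyrobp*, the receptor and its adaptor, differed between the genotypes by similar folds. *Trem2* was at 50.6, 14.3, 0 and 0 CPM in the WT mice and at 1239, 1009, 1496 and 497.1 CPM in the V321L mice. *Tyrobp* was at 0, 14.3, 0 and 26.9 CPM in WT and at 832.3, 587.7, 1126 and 465.4 CPM in V321L. Neither gene overlapped between the genotypes. *Trem2* rose by a log2 fold change of 5.47 ± 0.67 (SE, edgeR, adjusted p = 0.000131), and *Tyrobp* by 5.84 ± 0.65 (adjusted p = 9.54e-05). Since WT microglia held 2 UMIs of *Tyrobp* in all, its size is better given as the ratio of summed counts, 67.8-fold with a 95% counting interval from 18.6 to 564. The ratio for *Trem2*, from 4 WT UMIs, was 48.3-fold (18.7 to 178.4). These intervals cover counting error only.

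*Apoe* in microglia was at 67.4, 28.7, 34.5 and 0 CPM in WT and at 793.6, 877.1, 1609 and 772.1 CPM in V321L mice. It rose by 4.65 ± 0.59 on the log2 scale (SE, edgeR, adjusted p = 0.000136), but microglia stood below free RNA for this gene in both genotypes, as described further on.

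The surface genes differed less. *Cx3cr1* was at 370.8, 186.4, 172.4 and 349.3 CPM in WT and at 1084, 956.1, 1142 and 476 CPM in V321L microglia, with no overlap. It rose by a log2 fold change of 1.64 ± 0.42 (SE, edgeR, adjusted p = 0.0116), although the adjusted p was 0.0586 with the replicate name as a block, 0.0632 with nuclei of under 1% mitochondrial share and 0.0582 without WT F2. *Tmem119* was at 50.6, 86, 103.4 and 26.9 CPM in WT and at 290.3, 315.8, 386.1 and 222.1 CPM in V321L microglia. It rose by 2.04 ± 0.44 (adjusted p = 0.00477), from 13 and 96 UMIs, and with each nucleus thinned to 500 UMIs the value was 1.13 (adjusted p = 0.124). *P2ry12* was at 977.5, 659.6, 448.2 and 1263 CPM in WT and at 1723, 1237, 2783 and 941.4 CPM in V321L microglia. The ranges of *P2ry12* overlapped, and its log2 fold change of 0.92 ± 0.47 did not pass the test (adjusted p = 0.158). It passed with classes from clusters and without V321L M2, both at an adjusted p of 0.0391.

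In all, 8 of the 9 genes were called higher in V321L microglia and none lower, beside 15.1% called higher of the 5293 genes tested. Of the tested genes of under 10 kb, 65.9% were called higher. *C1qa*, *C1qb*, *C1qc*, *Trem2*, *Tyrobp*, *Apoe* and *Tmem119*, all of under 10 kb, held 8, 8, 10, 4, 2, 7 and 13 UMIs in WT microglia. They reached the 20 UMIs needed for a test only through the V321L mice, so their direction is not independent of that limit. *Cx3cr1* and *Tmem119* were not called with the scaling on short genes described further on. Without WT M1 the same test gave log2 fold changes of 6.29 for *C1qa*, 5.28 for *Trem2* and 4.69 for *Apoe*. For *C1qa*, *C1qb*, *C1qc*, *Trem2*, *Tyrobp* and *Apoe* the call held in all 21 alternative fits.

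**Figure D1:**
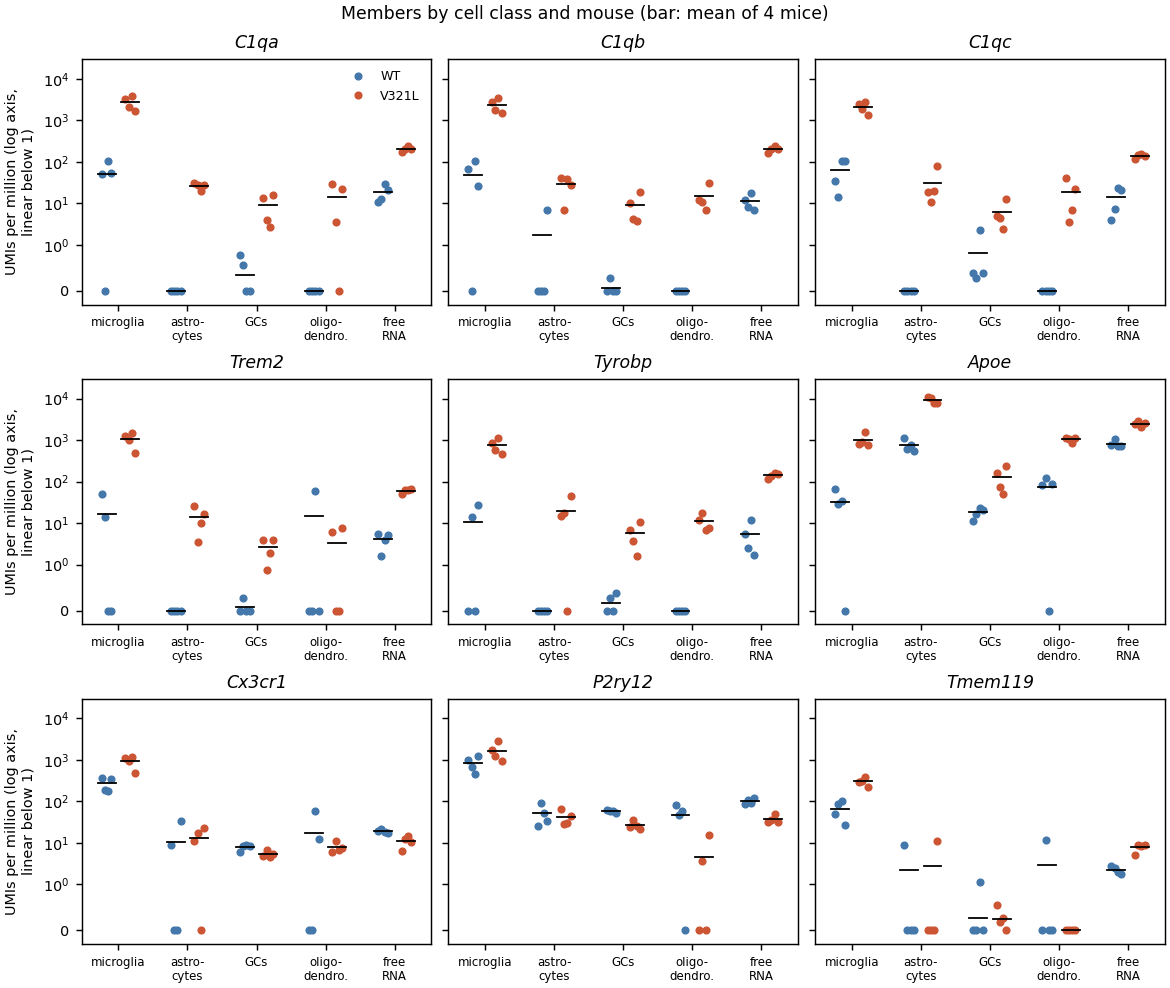
Levels of the 9 genes in CPM (log axis, linear below 1) in microglia, astrocytes, GCs, oligodendrocytes and free RNA. Each point is 1 mouse, blue for WT and red for V321L, and bars are means of 4 mice. *C1qa* averaged 51.9 CPM in WT and 2736 CPM in V321L microglia, and *P2ry12* 837 and 1671 CPM with overlapping points.

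The share of microglia with at least 1 UMI of a gene was read at full depth and at 1 fixed depth per nucleus. *C1qa* was seen in 8.96% ± 8.34 of WT and 82% ± 3.46 of V321L microglia (SD, n = 4 mice each). After each nucleus was thinned to 500 UMIs, which left out no nucleus, the shares were 4.89% ± 4.30 and 63.6% ± 5.84. *Trem2* was seen in 2.22% ± 2.96 of WT and 63.1% ± 8.80 of V321L microglia, and *Tyrobp* in 1.46% ± 1.71 and 47.7% ± 3.99. *P2ry12* was seen in 64.2% ± 6.91 of WT and 77.5% ± 10.8 of V321L microglia, so most WT nuclei in the gate held a UMI of *P2ry12* while few held one of *C1qa*. However, UMIs counted as *P2ry12* were not confined to microglia. The gene lies inside the region of *Med12l*, so reads of the 2 genes cannot be told apart. Of the 1172 UMIs counted as *P2ry12* in WT nuclei, 47.7% lay in GCs and 14% in microglia, and of 1105 in V321L nuclei 40.3% and 44.5%. Between 8.01% and 13.9% of the GCs of a WT mouse held one. UMIs counted as *Cx3cr1* were not confined to microglia either. Of 210 in WT nuclei, 35.2% lay in GCs and 25.2% in microglia, and of 424 in V321L nuclei 21.2% and 66.3%. *Tmem119* was seen in 3.23% to 20% of the microglia of a WT mouse. The groups of 4 mice did not overlap for 7 of the 9 genes at either depth, each with a two-sided exact permutation p = 0.0286, the smallest that 4 against 4 mice can give. For *P2ry12* the exact p was 0.0857 at full depth and 0.143 thinned, and for *Tmem119* it was 0.0571 and 0.114. With the stricter gate 6 genes had p = 0.0286 and *Cx3cr1* had p = 0.114, and with doublets kept 8 genes had p = 0.0286 in the same exact permutation test. These 9 p-values are not adjusted. The share of all genes whose groups did not overlap in this way was not computed, so the 7 of 9 has no background beside it. Of the tested genes of under 10 kb, 65.9% were called higher in V321L microglia. GCs, which are not known to make C1q, were the background: *C1qa* was seen in 0.0886% ± 0.11 of WT and 2.88% ± 1.64 of V321L GCs, at median depths of 1961 and 3938 UMIs.

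**Figure D2:**
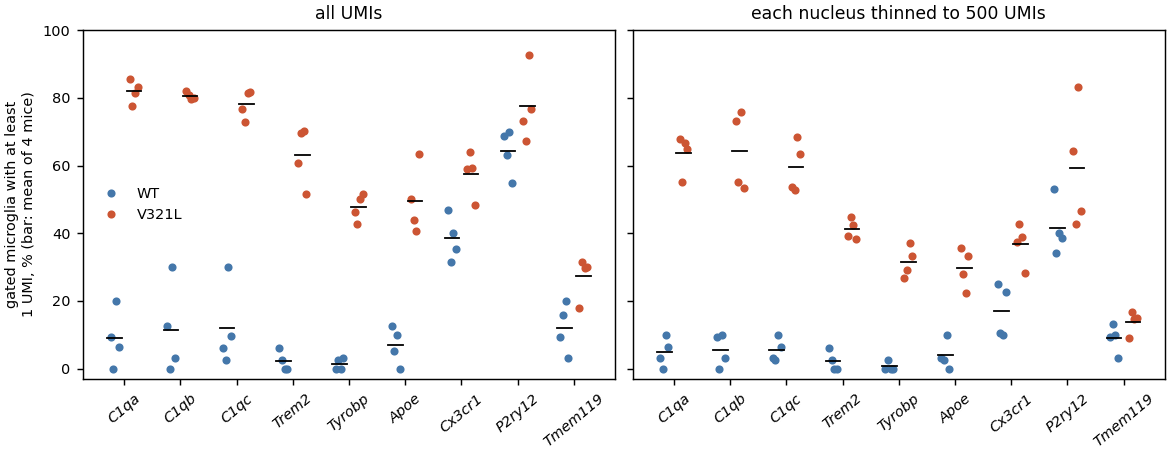
Percent of gated microglia with at least 1 UMI of each gene, per mouse (points, 4 per genotype, bars are means), with all UMIs and with each nucleus thinned to 500 UMIs. Blue WT and red V321L points are apart for all genes but *P2ry12* and *Tmem119*, and *C1qa* goes from 4.89% to 63.6% in the thinned nuclei.

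*Apoe* was chiefly an astrocyte transcript, and there too its level differed by genotype. Astrocytes held 46% of the 778 *Apoe* UMIs in WT nuclei and 64.1% of the 12567 in V321L nuclei, microglia 0.9% and 2.5%. In astrocytes *Apoe* was at 1127, 596.6, 773.3 and 557.9 CPM in WT F1, F2, M1 and M2 and at 10709, 10449.7, 7999.8 and 7827 CPM in the V321L mice. The genotypes were far apart, and *Apoe* rose by a log2 fold change of 3.49 ± 0.36 (SE, edgeR, adjusted p = 7.75e-09). In oligodendrocytes *Apoe* averaged 72.1 ± 50.7 CPM in WT and 1037 ± 127.8 CPM in V321L mice (SD, n = 4). In all, 5 of the 9 genes had enough UMIs to be tested in astrocytes, and 4 were called higher. Of the 8450 genes tested there 20.6% were called higher, and of those of under 10 kb 64.7%. Besides *Apoe*, the genes called were *C1qa*, *C1qb* and *C1qc*, on 23, 22 and 24 UMIs in V321L and 0, 1 and 0 UMIs in WT astrocytes. Against a floor of 3 counts over the WT group, *C1qa* was at least 4.56-fold and *C1qc* at least 4.76-fold higher. *C1qb* had a ratio of 13.1 with a counting interval from 2.12 to 540.3. These 3 calls rest on few UMIs. The 3 genes reached the 20 UMIs needed for a test only through the V321L mice, so their direction is not independent of that limit. In V321L mice *C1qa* averaged 26.4 CPM in astrocytes and 203.8 CPM in free RNA. *Apoe* alone was called without V321L F1, without V321L M2, with thinned nuclei, with edgeR's filterByExpr and with a mitochondrial share under 1%, where the C1q genes had too few UMIs to be tested. *C1qb* was not called without WT F1 (adjusted p = 0.0529), without WT F2 (0.0844) or with the scaling on short genes described further on (0.182). *P2ry12* in astrocytes had a log2 fold change of -0.54 ± 0.46 (adjusted p = 0.377).

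Most of these genes also differed in GCs and in free RNA. In GCs *C1qa* averaged 0.336 ± 0.399 CPM in WT and 8.99 ± 6.7 CPM in V321L mice, and *Apoe* 18 ± 5.23 and 130.6 ± 84.3 CPM (SD, n = 4). In total 6 genes were called higher in V321L GCs, where 35.9% of all genes tested were called higher, and *Cx3cr1* and *P2ry12* were called lower, where 26.1% were. Of the tested genes of under 10 kb, 69.6% were called higher in GCs. WT GCs held 4, 1, 5, 1 and 2 UMIs of *C1qa*, *C1qb*, *C1qc*, *Trem2* and *Tyrobp*. These genes too reached the 20 UMIs needed for a test only through the V321L mice. Free RNA of the V321L libraries held *C1qa* at 176.3, 202.6, 235.3 and 201 CPM, compared with 10.8, 13.1, 29.6 and 20.7 CPM in WT libraries. *Tyrobp* in free RNA was at 114.4, 138.3, 163.2 and 154.2 CPM in V321L and at 5.39, 2.45, 11.9 and 1.73 CPM in WT. The levels in free RNA did not overlap for either gene. In free RNA 7 genes were called higher, as were 35.1% of all genes tested and 69.8% of those of under 10 kb. *Trem2*, *Tyrobp* and *Tmem119*, with 11, 14 and 7 UMIs in WT free RNA, reached the limit for a test only through the V321L libraries. *P2ry12* was called lower there, as were 32.1% of all genes tested. The log2 fold changes there were 4.00 ± 0.23 for *C1qa*, 5.35 ± 0.30 for *Tyrobp*, 4.44 ± 0.30 for *Trem2* and 2.05 ± 0.21 for *Apoe* (SE, edgeR, adjusted p of 5.37e-17, 1.69e-17, 3.48e-15 and 1.56e-10). *P2ry12* fell by 1.01 on the log2 scale in free RNA (SE 0.18, adjusted p = 7.43e-06) and stood at 0.353 of its WT level in V321L GCs (adjusted p = 1.23e-06).

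**Figure D3:**
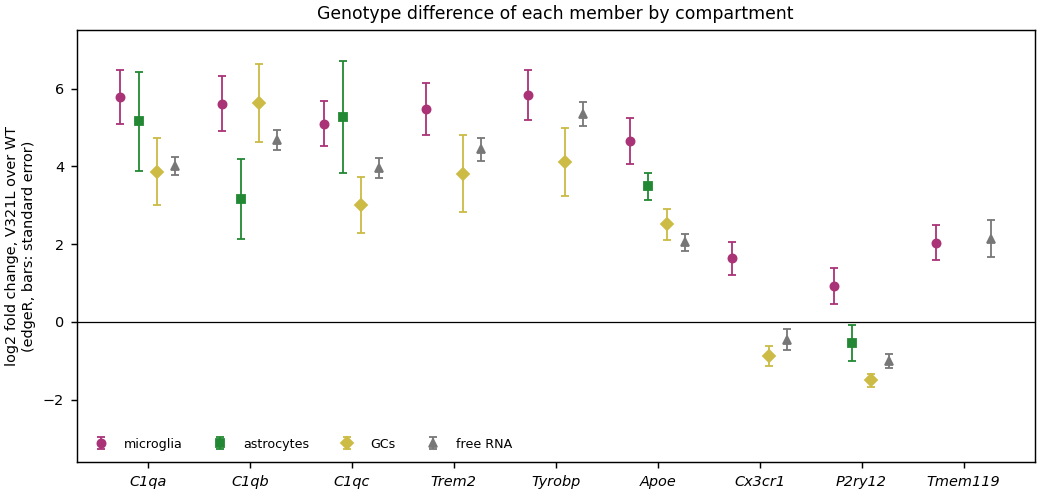
Log2 fold change of V321L over WT for each gene in microglia, astrocytes, GCs and free RNA (points, edgeR estimates from 4 mice per genotype; bars, standard errors; genes below 20 UMIs in a compartment have no point). *C1qa* stands at 5.79 in microglia and 4.00 in free RNA, and *P2ry12* at 0.92 in microglia and -1.01 in free RNA.

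Microglia were set against free RNA and against astrocytes of the same mouse to see where each transcript was concentrated. Against astrocytes, 8 genes were called higher in microglia, as were 10.5% of all genes tested, and *Apoe* was called lower, as were 19.7%. The log2 difference was 5.99 ± 0.49 for *C1qa*, 5.53 ± 0.43 for *Trem2*, 4.25 ± 0.36 for *P2ry12* and -4.04 ± 0.50 for *Apoe* (SE, edgeR with mouse as a block, adjusted p of 2.21e-22, 7.8e-24, 1.09e-21 and 4.05e-12). Against free RNA, 7 genes were called higher in microglia (11.8% of all genes tested) and *Apoe* lower (47.0%). Over both genotypes *Cx3cr1* differed by 3.90 ± 0.34 (adjusted p = 6.21e-13) and *Tmem119* by 3.58 ± 0.33. In WT mice *Cx3cr1* was at 269.7 CPM in microglia and 18.99 CPM in free RNA and *Tmem119* at 66.7 and 2.21 CPM, and in V321L mice at 914.5 and 10.8 CPM and at 303.6 and 7.77 CPM. *C1qa* differed by 1.48 ± 0.36 (adjusted p = 0.000488). *Tyrobp* differed by 0.53 ± 0.36 and did not pass (adjusted p = 0.204). The median of all genes was shifted by -1.20 in this comparison, so values are relative to that shift; with library sizes in place of TMM *Tyrobp* stood at 2.18 and was called (adjusted p = 1.02e-05). It was also called, at 1.22, with free RNA limited to barcodes of at most 20 UMIs, and turned to -0.45 (adjusted p = 0.372) in nuclei of under 1% mitochondrial share, where *C1qa* stood at 0.78 and was not called (adjusted p = 0.0647). With no block for mouse, 3 genes were called higher. Against free RNA, astrocytes had no gene called higher (19.3% of all genes tested) and 7 called lower (42.9%), and for *Apoe* the difference over both genotypes was 0.17 ± 0.24 (adjusted p = 0.546). The genotypes were unlike for this gene, with 763.8 CPM in astrocytes and 813.7 CPM in free RNA of WT mice, and 9246 and 2503 CPM in V321L mice.

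The genotype difference in microglia was then tested against that in free RNA of the same libraries. None of the 9 genes differed at an adjusted p under 0.05, where 0.799% of the 14516 genes tested were called higher, and 4 had an unadjusted p under 0.05. *Apoe* had a difference of 2.23 ± 0.69 (adjusted p = 0.0537), *Cx3cr1* of 1.63 ± 0.54 (adjusted p = 0.0778), *P2ry12* of 1.43 ± 0.51 (adjusted p = 0.118) and *C1qa* of 1.43 ± 0.71 (adjusted p = 0.357), all on the log2 scale (SE, edgeR interaction term). *C1qb*, *C1qc* and *Trem2* had differences of 0.66 ± 0.77, 0.77 ± 0.72 and 0.78 ± 1.04, and *Tyrobp* and *Tmem119* of 0.18 ± 1.31 and -0.51 ± 0.72. With library sizes in place of TMM, 4 genes were called higher, *Cx3cr1*, *P2ry12*, *Apoe* and *C1qa*, at 2.61, 2.40, 3.23 and 2.38. DESeq2 called none. The fit without V321L M2 called 3 genes and that without WT F1 called 1. The same test in astrocytes called *Apoe* alone, at 1.18 ± 0.36 (adjusted p = 0.0211), against 3.59% of all genes called higher. That call was lost, with 0 genes called, without WT F2, WT M2, V321L F1 or V321L F2.

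The genotype difference moved with the span of a gene across the whole transcriptome. Among the 539 tested genes of under 10 kb, the median log2 fold change in microglia was 2.91 and 65.9% were called higher in V321L. It was 0.78, with 17.3% called higher, for the 1977 genes of 10 to 50 kb, and -0.37, with 3.09%, for the 2683 longer genes. Ribosomal protein genes had a median of 4.41 in microglia and 3.74 in astrocytes. Against the genes of their own class of span, *Tyrobp* ranked 30, *C1qa* 31, *C1qb* 37, *Trem2* 45, *C1qc* 77 and *Apoe* 109 of 539, and *Tmem119* 362. *Cx3cr1* ranked 468 and *P2ry12* 910 of 1977. In astrocytes, where genes of under 10 kb had a median of 2.27 and 64.7% were called higher, *Apoe* ranked 301 of 1309. In free RNA *Tyrobp* ranked 52 and *Apoe* 1484 of 3262.

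With the scaling set on genes of under 10 kb, *C1qa* was higher in V321L microglia by 4.21 ± 0.73, *C1qb* by 4.03 ± 0.72, *C1qc* by 3.52 ± 0.66, *Tyrobp* by 4.30 ± 0.81, *Trem2* by 3.89 ± 0.75 and *Apoe* by 3.04 ± 0.66 on the log2 scale. All 6 passed (edgeR, adjusted p between 1.43e-05 for *C1qa* and 0.000272 for *Apoe*). On that scale *Cx3cr1* stood at 0.01 ± 0.53 (adjusted p = 0.989) and *Tmem119* at 0.40 ± 0.58 (adjusted p = 0.583), and *P2ry12* turned to -0.74 ± 0.59 (adjusted p = 0.299). In astrocytes *Apoe* was higher by 2.12 ± 0.53 (adjusted p = 0.000313) and *P2ry12* lower by 2.02 (log2 fold change -2.02, adjusted p = 0.00026). What lies behind the relation to span was not tested.

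**Figure D4:**
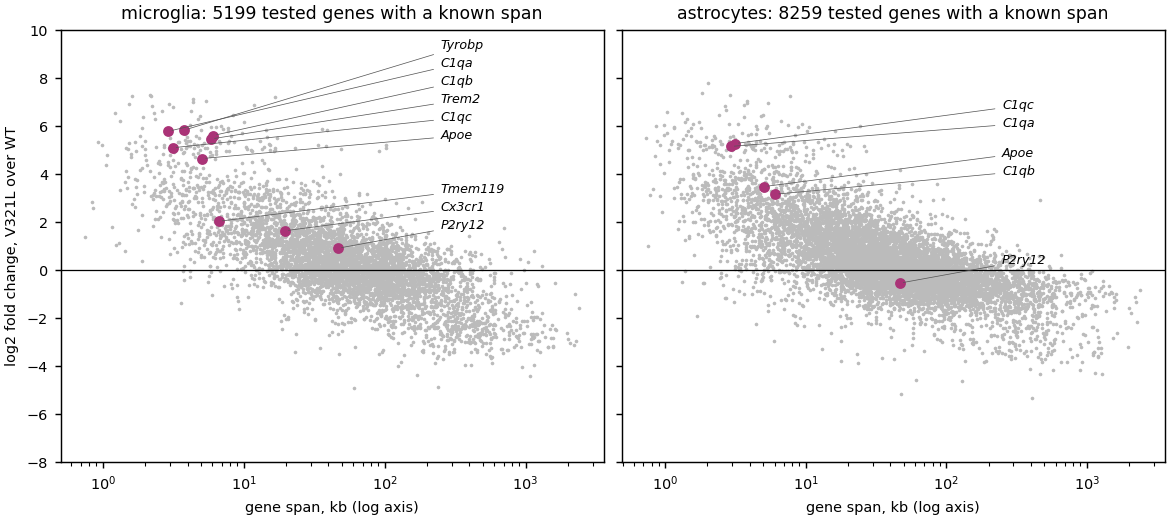
Log2 fold change of V321L over WT for every tested gene with a known span (grey points) against its span in kb (log axis), in microglia and astrocytes, with the genes described here in purple. The cloud falls from left to right, with a median of 2.91 under 10 kb and -0.37 over 50 kb in microglia, and *C1qa*, *Tyrobp* and *Trem2* lie in the upper part of the short genes.

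Chromatin accessibility at the start sites was read in the same nuclei. ATAC counts in peaks within 1 kb of a start site were taken per 10000 ATAC counts of a class, in the libraries where such a peak had been called. For *C1qc*, with a peak in 6 libraries, microglia had 1.17 ± 0.62 in 3 WT and 0.83 ± 0.29 in 3 V321L libraries (SD), with overlapping ranges of 0.724 to 1.88 and 0.623 to 1.16. These values cover unlike stretches. WT M1, WT M2 and V321L M1 had 2 *C1qc* peaks of 1654, 1691 and 1608 bases together. WT F1, V321L F1 and V321L F2 had 1 peak of 849, 796 and 817 bases. *Apoe* in astrocytes had 1.09 ± 0.21 in 3 WT and 1.22 ± 0.28 in 3 V321L libraries, again overlapping. *C1qa* had 0.453 in WT M1, the only WT library with a peak, which held 10 gated microglia. It had 1.18 ± 0.58 in 2 V321L libraries. *Trem2* had 1.32 in 1 WT library, WT M2, and 0.356 ± 0.17 in 2 V321L libraries. V321L M2, the library with the fewest ATAC counts (6580616), had no peak at any of these genes and does not enter. Since the authors called peaks separately per library, these values are a description with no test.

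Between classes, start site counts were compared in the same way. For 8 of the 9 genes the mean over libraries was highest in microglia among microglia, astrocytes, GCs and oligodendrocytes, and for *Apoe* it was highest in astrocytes. For *Cx3cr1* this rests on 1 library, V321L F2, with 48 counts in microglia, and for *Tyrobp* on 2 libraries, both V321L. *C1qb* had 1.79 in microglia, 0.052 in astrocytes and 0.0198 in GCs over 4 libraries, and *Tyrobp* 0.897, 0 and 0.00736 over 2. *Apoe* had 1.15 in astrocytes, 0.271 in microglia and 0.0519 in GCs over 6 libraries. The counts behind the microglial values were 160 for *C1qb*, 148 for *C1qc*, 116 for *C1qa* and 46 for *Trem2*.

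**Figure D5:**
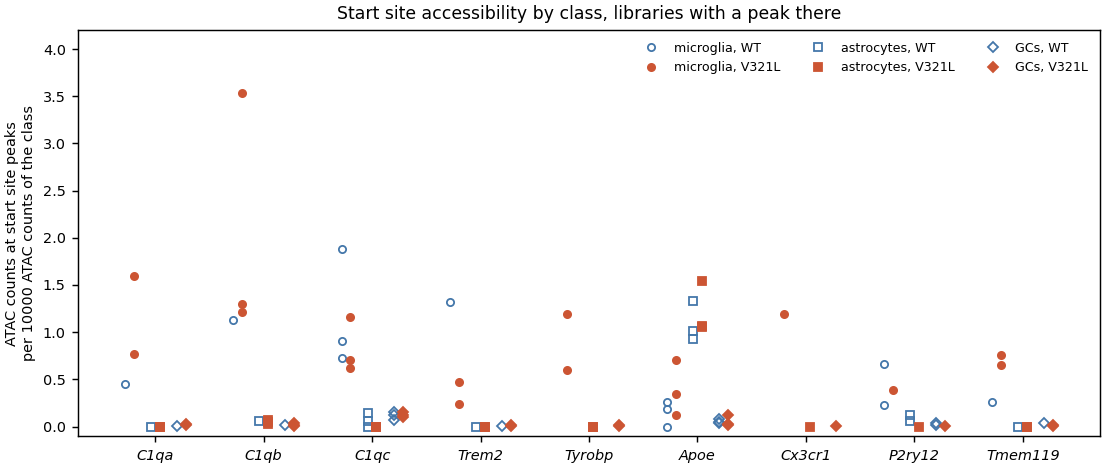
ATAC counts in start site peaks per 10000 ATAC counts of the class, for each library with such a peak. Circles are microglia, squares astrocytes and diamonds GCs, open blue for WT and filled red for V321L. *Apoe* is open in astrocytes of both genotypes at 1.09 and 1.22, and *C1qc* in microglia of both at 1.17 and 0.83. The libraries differ in the number and length of the *C1qc* peaks counted.

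Other genes of these pathways were read from 6 lists, whose counts stand beside those of all genes tested: in microglia 15.1% were called higher and 10.2% lower, with a median log2 fold change of 0.23. The lists were not split by span, and 65.9% of the tested genes of under 10 kb were called higher. *Fth1*, *Ctsz*, *B2m*, *Spi1*, *Syk*, *Prkcd*, *Lrp1*, *Npc2* and *Tgfb1* had under 20 UMIs in WT microglia. So had *C4b*, *Npc2*, *Cd63*, *Ctsl* and *Ctsd* in WT astrocytes. In these classes they reached the limit for a test only through the V321L mice, so their direction is not independent of it. Of 33 homeostatic microglia genes, 32 were tested in microglia, 19 rose and none fell. *Cst3*, a secreted cysteine protease inhibitor, went from 427 to 14026 CPM (log2 fold change 4.91 ± 0.64, edgeR adjusted p = 0.000159), and the receptor genes *Gpr34* and *Csf3r* rose by 2.75 ± 0.43 and 2.29 ± 0.41. *Fcrls*, a microglial marker, rose by 2.44 ± 0.42. The median of the list was 2.01. Of 32 genes of the disease-associated microglia list, which holds lysosomal, iron and antigen genes, 17 were tested. Of these 14 rose and none fell, with a median of 3.69. *Cst7*, *Lpl*, *Itgax*, *Clec7a*, *Axl*, *Spp1* and *Gpnmb* of the list were not among the genes called. Only 3 tested genes of the list did not pass, so most of these had too few UMIs to be tested. In astrocytes 12 of 17 tested genes of the list rose too, and whether microglia were in a disease-associated state was not tested. *Ctsd*, a lysosomal protease, rose by 4.08 ± 0.51, *Ctsz* by 4.52 ± 0.59, the ferritin heavy chain gene *Fth1* by 4.71 ± 0.60 and *B2m*, the light chain of MHC class I, by 3.69 ± 0.50.

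Genes of TREM2 and TYROBP signalling rose in 9 of 22 tested cases, and 1 fell, where 15.1% and 10.2% of all genes did. *Syk*, the kinase that binds the phosphorylated ITAM, rose by 3.11 ± 0.60 (edgeR, adjusted p = 0.00217) from 4 to 67 UMIs, *Spi1*, which encodes PU.1, by 3.63 ± 0.63 (adjusted p = 0.00111) from 4 to 91 UMIs, *Prkcd* by 2.45 ± 0.56 and *Siglech*, which pairs with TYROBP, by 1.92 ± 0.44. *Vav3*, an exchange factor, was the gene that fell, and it was named for its direction after its value was seen. The median of the list was 1.48.

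Of 15 other complement genes and regulators tested in microglia none rose and 1 fell, with a median of -0.20. These are small counts beside the 15.1% higher and 10.2% lower of all genes, and the difference from the C1q genes was not tested. *Csmd1*, a long neuronal gene encoding a complement inhibitor, fell by 2.48 on the log2 scale (SE 0.77, adjusted p = 0.0278), from 3700 to 684.7 CPM. *Itgam*, a chain of complement receptor CR3, had a log2 fold change of 1.07 ± 0.38 (adjusted p = 0.0502), *Csmd2* of -1.69 ± 0.78 and *Clu* of 1.71 ± 0.86, and none of these passed. In astrocytes, where 20.6% of all genes were called higher and 13.5% lower, 12 of the list were tested. *Clu* (2.42 ± 0.33) and *C4b* (3.27 ± 0.68, from 3 to 64 UMIs) rose. The 5 that fell were *Csmd1* (-2.63 ± 0.37), *Csmd3* (-3.23 ± 0.48), *Susd4*, *Sez6l* and the C1q-like gene *C1ql3*. GC markers in astrocytes summed to 3114 to 4872 CPM in WT and 1247 to 1601 CPM in V321L mice. They were lower in V321L microglia too, and the part of neuronal RNA in the falls of either class was not tested.

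Of the lipid transport list, *Lrp1*, an APOE receptor, rose by 2.26 ± 0.44 in microglia (edgeR, adjusted p = 0.0023), and *Npc2*, a lysosomal cholesterol carrier, by 3.19 ± 0.76. They were the only genes of that list called in microglia, 2 of 10 tested, near the share of all genes, and *Sorl1* stood at -1.30 ± 0.57 (adjusted p = 0.0999). In astrocytes 9 of 19 rose and 1 fell, beside 20.6% and 13.5% of all genes. *Lcat*, which esterifies cholesterol on lipoproteins, rose by 3.42 ± 0.36 there, *Npc2* by 4.76 ± 0.61 from 2 to 121 UMIs, and *Lrp1* by 1.98 ± 0.34. A list of 5 ligands held *Cx3cl1*, *Csf1*, *Il34*, *Tgfb1* and *Tgfb2*. *Tgfb1*, which encodes no ligand of the receptors among the 9 genes, was the only one tested in microglia. It rose by 3.27 ± 0.77 from 2 to 41 UMIs. None of 3 passed in astrocytes, where *Cx3cl1*, the ligand of CX3CR1, had 0.08 ± 0.75. Read against the same shares, the other lists in astrocytes gave 12 of 17 disease-associated genes higher and 1 lower, led by *Cd63* with 4.82 ± 0.40, *Ctsl* with 3.35 ± 0.39, *Fth1* with 3.22 ± 0.41 and *Ctsd* with 3.32 ± 0.44. Of the homeostatic list 3 of 13 rose and 2 fell, near the shares of all genes, with *Cst3* at 4.60 ± 0.39, *Serpine2* at 1.28 ± 0.28, *Mef2c* at -1.74 ± 0.30 and *Mef2a* at -1.29 ± 0.31, and of the signalling list 1 of 10 rose (*Sirpa*, 1.39 ± 0.35) and 1 fell (*Vav3*, -0.80 ± 0.27), while *Adam10* and *Prkcd* had -0.59 ± 0.29 and 1.45 ± 0.72.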

How the data were processed

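The authors counted reads with Cell Ranger ARC 2.0.2, and the submitters' notes name the build mm10. The deposited files hold raw UMI counts per gene and ATAC counts per peak for every barcode, with peaks called per library. Nuclei passed the study's limits on UMIs, genes and mitochondrial share, and had at least 500 ATAC counts and a doublet score at most 2 SD above the library mean. Of 16360 nuclei, 317 shared a barcode sequence with a nucleus of another library. Counts were summed per mouse and class, and genes with at least 20 UMIs were tested with edgeR 4.0.16 (quasi-likelihood, TMM, Benjamini-Hochberg at 0.05, R 4.3.3), with DESeq2 1.42.0 as an alternative. The limit of 20 UMIs applied to the total over all sums of a fit, so a gene could pass it through 1 genotype alone. The SE given with an edgeR log2 fold change was derived from the test, as its absolute value divided by the square root of the quasi-likelihood F statistic. The study's tests over nuclei were replaced by these sums. Clusters were made with scanpy 1.11.5.

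The 9 genes, the lists and the naming rule (from each list, up to 4 genes with the smallest adjusted p) were chosen with earlier results of these data known. The scoring of the gate was set after values of the 9 genes had been seen: 3 versions were tried, and the kept version was chosen on nuclei per mouse and overlap with clusters. Its stricter and looser forms, the classes of span, the scaling on short genes, the ribosomal and mitochondrial lists and the searched letters were also chosen after the data were seen.

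On simulated counts, with changes placed in genes of at least 100 UMIs after a first trial, the microglia fit recovered 58 of 112 genes changed by 2 and 3 of 88 changed by 1 on the log2 scale, with 2 false calls. The test against free RNA recovered 48 of 100 and 3 of 100.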

Additional observations from a re-analysis of the deposited data

Results flagged for a closer look

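In 44 groups of 4 mice with at least 20 UMIs, 3 had a mouse far from the others by Dixon's test, which chance does in about 1 of 20 groups. *C1qc* in astrocytes of V321L M2 was at 77.8 CPM, where the other V321L mice lay between 10.5 and 19.6 CPM. *Apoe* in microglia of V321L M1 was at 1609 CPM, where the others lay between 772.1 and 877.1 CPM. *Tmem119* in free RNA of V321L F1 was at 4.99 CPM, where the others lay between 8.39 and 8.94 CPM. The genotype difference of *Apoe* was larger in astrocytes than in free RNA of the same libraries, by 1.18 on the log2 scale in the test of the difference (edgeR, adjusted p = 0.0211). That call was lost with thinned nuclei, with a mitochondrial share under 1%, and without WT F2, WT M2, V321L F1 or V321L F2.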

How the results depend on the processing

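Of the counts of genes called, that in microglia (8 higher) lay between 6 and 9 under every alternative run. For astrocytes (4 higher) it was 1 under edgeR's filterByExpr, with nuclei thinned to 500 UMIs and with a mitochondrial share under 1%, but 6 with no filter on low counts, 5 with doublets kept and with no ATAC minimum, and between 1 and 4 without each mouse. Scaling on genes of under 10 kb called 1 gene lower there, and turned *P2ry12* in microglia to -0.74. In GCs (6 higher, 2 lower) filterByExpr called 2 higher, thinning 3 higher and 1 lower, and library sizes 1 lower, with *Cx3cr1* at 0.19 when thinned. In free RNA (1 lower) library sizes and the scaling on short genes each called 2 lower. For microglia against free RNA (7 higher) the fit with no replicate block called 3, and *Tyrobp* was at -0.45 with a mitochondrial share under 1%. For astrocytes against free RNA (0 higher) library sizes and free RNA of up to 20 UMIs each called 1, and *Apoe* was at -0.26 with a mitochondrial share under 1%. For the genotype difference in microglia against that in free RNA (0), library sizes called 4, no filter 1, the looser gate 2, clusters 3, kept doublets 3, and leaving out 1 mouse between 0 and 3. There *C1qb* was at -0.17 and *Trem2* at -0.29 when thinned, *C1qc* at -0.015 with a mitochondrial share under 1%, and *Tmem119* at 0.44 with library sizes and 0.55 with free RNA of up to 20 UMIs. *Tyrobp* was at -0.014 with DESeq2, -0.30 with the stricter gate, -0.42 with doublets kept, -0.31 thinned, -0.86 with a mitochondrial share under 1%, -0.29 with no ATAC minimum and between -0.59 (without WT M1) and 1.07 without each mouse. For the same test in astrocytes (1), library sizes called 2, thinning and a mitochondrial share under 1% 0, and leaving out 1 mouse between 0 and 1. There only *Apoe* was followed gene by gene, a choice made after the values were seen, since the other 8 genes rest on few UMIs and several change sign. *P2ry12* in astrocytes ran from -0.82 to 0.24 without each mouse, the latter without WT F2. Without each mouse the log2 fold change in microglia ran from 5.20 to 6.29 for *C1qa* and from 0.56 to 1.11 for *P2ry12*. For the shares of microglia with a UMI (7), the stricter gate gave 6 and kept doublets 8, and leaving out 1 mouse gave 0 each time because 4 against 3 mice cannot go below p = 0.0571 in the exact permutation test. The cause of these changes was not tested.

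Same-named mice of the genotypes share only sex and a number. Their deviations correlated between -0.689 and 0.18 in microglia, -0.301 and 0.253 in astrocytes, -0.1 and 0.348 in GCs and -0.0595 and 0.167 in free RNA. With the replicate block 7 genes were called higher in microglia, 4 in astrocytes, 6 higher and 2 lower in GCs and 7 higher and 1 lower in free RNA. The free RNA share of microglia, estimated from GC markers, ran from 83.6% to 277.4% in WT and from 38.1% to 283% in V321L mice and was held at 100%. It was above 100% in WT F1, F2 and M1 (237.8%, 226.5% and 277.4%) and in V321L M2 (283%). There the GC markers made up more of the UMIs in microglia than in free RNA, so the estimate is not a usable share for any gene. The reason was not tested. Subtracting the share left a negative mean level for *Apoe* in both genotypes, with V321L M1 alone above 0, so it gives no usable level for that gene in any case. With 111 WT microglia, levels of a few UMIs set the precision.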
